A study of Homo sapiens with 4 samples.

Results

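The chaperone network was followed at the RNA level through 48 genes, namely the HSP90, HSP70 and HSP110 chaperones, their J-domain and BAG partners, the HSP90 cochaperones, the CCT chaperonin with prefoldin, the mitochondrial and ER chaperones, 2 genes with small heat shock protein names and the heat shock factors HSF1 and HSF2. These genes were taken by name from the 64252 Ensembl genes of the count table, and all 48 were found and passed the filter on low counts. They were picked with earlier results of the same treatment in view, so their changes are given as a description, without p-values. HSPB11 is listed in the annotation under its current symbol, IFT25. Libraries were made from cells labelled NB4, an acute promyelocytic leukemia line carrying the PML-RARa fusion, which had been kept for 24 h with 8 μM dBET1 (2 libraries, replicates 1 and 2) or with the solvent DMSO (2 libraries, replicates 1 and 2). dBET1 is a PROTAC, a molecule whose BET-binding end recruits bromodomain proteins and whose other end binds CRBN, the substrate receptor of an E3 ubiquitin ligase. The labels name no engineered allele and no further agent in either group.

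Chaperones bind unfolded or partly folded proteins and release them in cycles of ATP hydrolysis. HSP70 takes up a client that a J-domain protein delivers, an exchange factor of the BAG or HSP110 type lets it go, and many kinases and steroid receptors then pass to HSP90, where cochaperones set the pace of the ATPase cycle. CCT, a double ring of subunits encoded by separate genes, folds actin and tubulin handed over by prefoldin, whereas mitochondria and the ER hold chaperone sets of their own. HSF1 is the main transcription factor of the heat shock response and binds repeats of the letters GAA in alternating orientation, known as heat shock elements.

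Library totals ran from 28019956 to 34685645 counts. Nothing in the labels says whether the libraries of a group came from separate cultures. The errors below therefore rest on the spread between these libraries, which may be technical. Markers did not match the labelled cell type. Of 5 genes for granule proteins of promyelocytes, MPO, ELANE and CTSG were at 0 with DMSO, and the sum with AZU1 and PRTN3 reached only 17 and 15 counts there and 55 and 25 counts with dBET1. In contrast, erythroid genes were abundant. The fetal globin gene HBG2 had 2464 and 2985 CPM with DMSO and 1721 and 1762 CPM with dBET1, and the transcription factor GATA1 had 207 and 236 and then 154 and 159.9 CPM. Other erythroid genes were lower after dBET1 as well. Group means went from 842 to 531 CPM for HBG1, from 833 to 286 for HBA1, from 768 to 249.7 for HBA2, from 366 to 90.4 for HBZ and from 230.5 to 50.4 for KLF1. CPM is the count scaled to a fixed library size after TMM normalization, which corrects for differences in composition. The cells are therefore described as labelled, and the part of cell identity, or of the lower erythroid genes, in the results was not tested. In bulk RNA, fewer cells of a type and less RNA per cell cannot be told apart.

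Promoter sequences of 41 of the 48 genes were matched in RefSeq (build GRCh38.p14), and the 250 bases before each start were searched on both strands. Only a single promoter was kept per gene symbol, so further starts of a gene were not searched. The windows of FKBP4, STUB1, CCT6A, HSPA14, PFDN2, GRPEL1 and HSF1 were not matched. A heat shock element of 3 units (GAA and TTC in turn, each 2 bases from the next) was present in 3 of the 41 windows, those of HSPA8, DNAJB6 and CHORDC1, against 0.439% of 27305 promoters of the same length. The form with 2 units (GAANNTTC or TTCNNGAA), which lies within every 3-unit match, was present in 9 windows (HSPA1A, HSPA1B, HSPA8, DNAJA1, DNAJB6, CHORDC1, TCP1, PFDN6 and HSPB1), against 11.7% of all promoters. Of these 9 genes 2 rose, 5 fell and 2 were not called. Of the 32 without an exact match 2 rose and 30 fell. The 2 with it that rose were HSPA1A and HSPA1B, nearly identical copies whose reads cannot be assigned with certainty. An E-box (CACGTG) was found in the 5 windows of HSPD1, HSPE1, HSPA9, HSP90B1 and HSF2, against 6.49% of all promoters. All 5 genes fell, as did 30 of the 36 searched genes without it. The ER stress element (CCAAT and CCACG spaced by any 9 bases) was found in the windows of HSPA5 and HSP90B1, against 0.0806%. The CCAAT box (CCAAT) was in 13 of the 41 windows (31.7%, against 33.0% of all promoters), a match that the ER stress element contains, and the ETS core (CCGGAAG) in 9 (22.0%, against 8.82%). Shown here are windows of genes that rose, were not called or fell, with the matched motif in capitals. They are HSPA1A (chr6:31815393-31815542, forward strand, 2-unit element), HSPA8 (chr11:123062137-123062386, reverse strand, 3-unit elements), CHORDC1 (chr11:90223080-90223199, reverse strand, 3-unit elements that overlap into a run), the stretch of 104 bases between the HSPD1 and HSPE1 starts (chr2:197500275-197500378, forward strand, E-box) and HSPA5 (chr9:125241383-125241493, reverse strand, ER stress element).
HSPA1A: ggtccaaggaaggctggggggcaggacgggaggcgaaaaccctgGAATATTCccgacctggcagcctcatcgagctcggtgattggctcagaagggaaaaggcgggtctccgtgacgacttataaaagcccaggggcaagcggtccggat
HSPA8: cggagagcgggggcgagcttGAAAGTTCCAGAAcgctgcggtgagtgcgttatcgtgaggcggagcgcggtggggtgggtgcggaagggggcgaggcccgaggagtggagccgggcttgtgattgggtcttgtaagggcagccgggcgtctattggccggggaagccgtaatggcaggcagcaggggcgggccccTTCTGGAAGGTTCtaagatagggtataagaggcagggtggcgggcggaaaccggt
CHORDC1: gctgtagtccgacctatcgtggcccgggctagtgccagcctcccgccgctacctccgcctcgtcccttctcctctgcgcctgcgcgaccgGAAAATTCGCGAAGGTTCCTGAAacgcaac
HSPD1 to HSPE1: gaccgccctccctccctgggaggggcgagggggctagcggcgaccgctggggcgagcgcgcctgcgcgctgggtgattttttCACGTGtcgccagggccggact
HSPA5: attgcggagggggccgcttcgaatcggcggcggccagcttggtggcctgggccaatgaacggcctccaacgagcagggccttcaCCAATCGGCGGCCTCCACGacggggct
The element of HSPA1A began 106 bases before the start, those of HSPA8 began 230 and 55 bases before it, and the run of CHORDC1 covered bases 60 to 38 before it. HSPD1 and HSPE1 are transcribed away from each other, so the E-box drawn above lies in the upstream window of both. These matches describe letters only and show no binding. No mismatch was allowed and only 250 bases were searched, so the lack of a match does not show that a gene lacks the element.

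Of the 48 chaperone genes, 42 fell after dBET1, 4 rose and 2 did not pass the threshold. The call threshold was 0.05 for the Benjamini-Hochberg adjusted p of the quasi-likelihood test in edgeR, over 17971 tested genes. Among all tested genes 27.6% were lower and 28% were higher at that threshold. The share of lower calls depended on abundance, and 34 of the 48 chaperone genes belong to the decile of genes with the highest level, in which 62.1% were lower and 13.6% were higher. With a log2 fold change beyond 1 in either direction required as well, 21 chaperone genes were lower and 0 were higher (8.54% and 16.9% of all tested genes, and 16.6% and 1.67% of the highest decile). The median log2 fold change was -0.93 over the 48 genes, 0.05 over all tested genes and -0.41 over the highest decile. With total counts as the only scaling the median of all tested genes was 0.26 and that of the 48 genes -0.72, with HSP90AA1 turned to 0.0048. Lower and higher calls then numbered 3573 and 6703 over all tested genes, in place of 4953 and 5038. TMM and total counts are both relative scalings, so rises and falls here do not measure RNA per cell. For every one of the 48 genes the DMSO and dBET1 libraries did not overlap, with 42 lower and 6 higher (37.4% and 41.9% of all tested genes, and 68.6% and 18.9% of the highest decile). Because the genes were chosen with these changes known, the counts carry no weight beyond description.

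**Figure D1:**
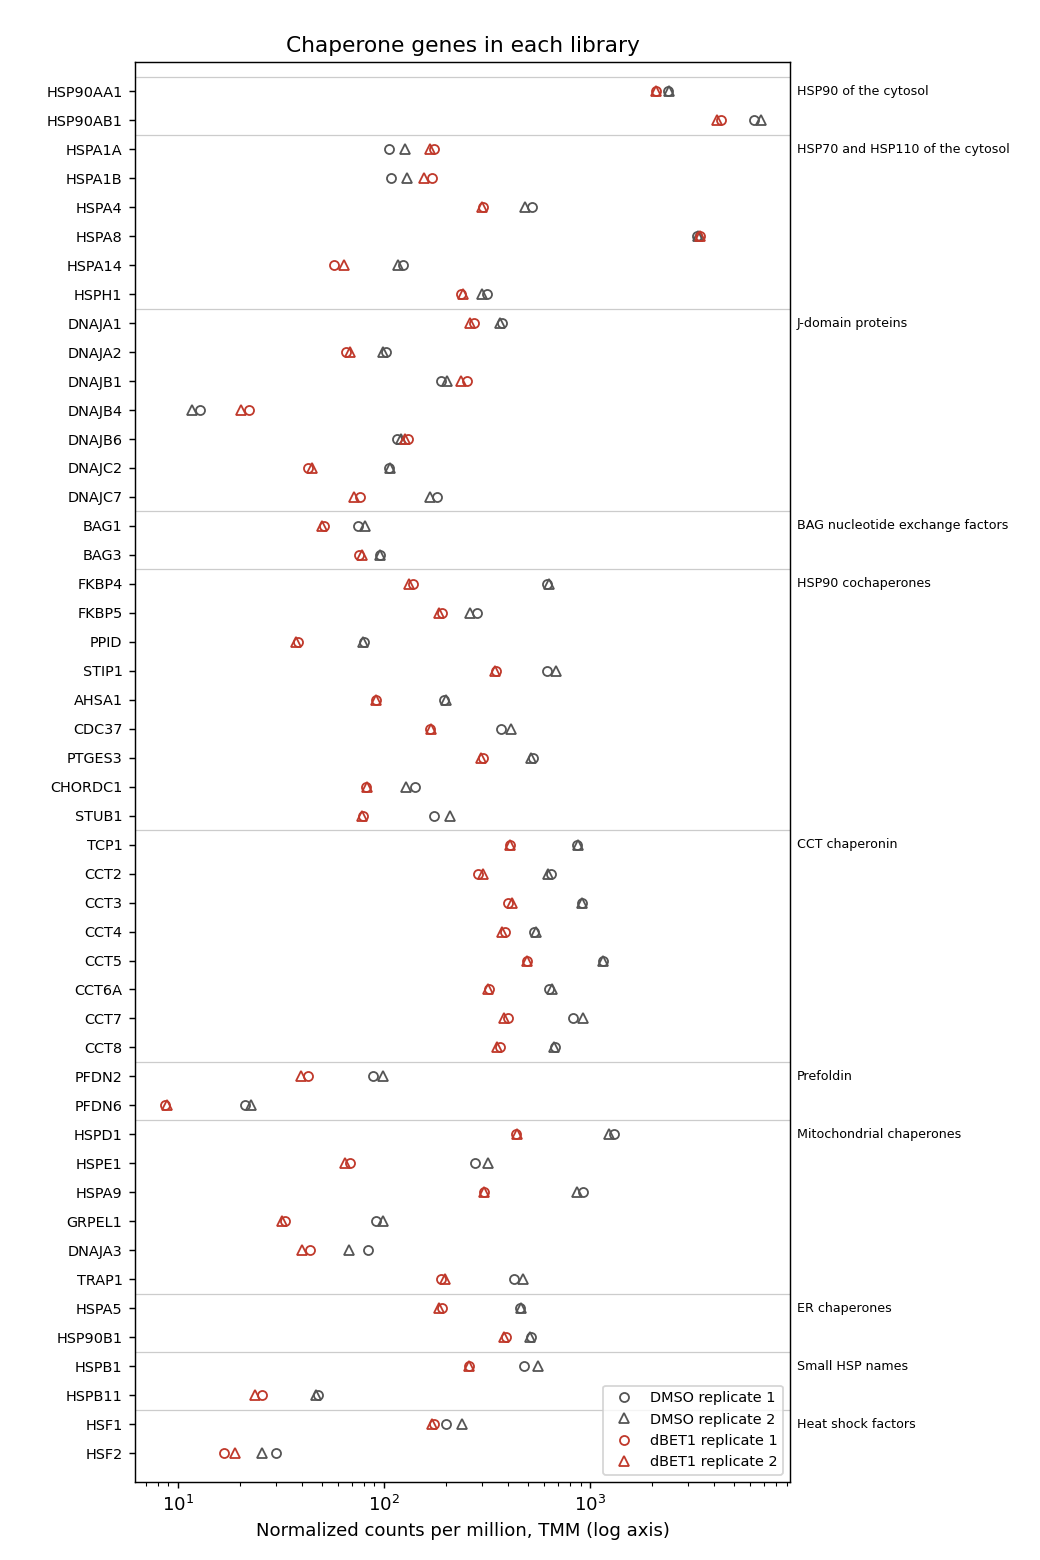
Normalized counts (CPM, log axis) of the 48 chaperone genes in each of the 4 libraries, grouped by role. Circles are replicate 1 and triangles replicate 2. The dBET1 libraries (red) lie left of the DMSO libraries (grey) for 42 genes, and right of them for HSPA1A, HSPA1B, HSPA8, DNAJB1, DNAJB4 and DNAJB6.

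**Figure D2:**
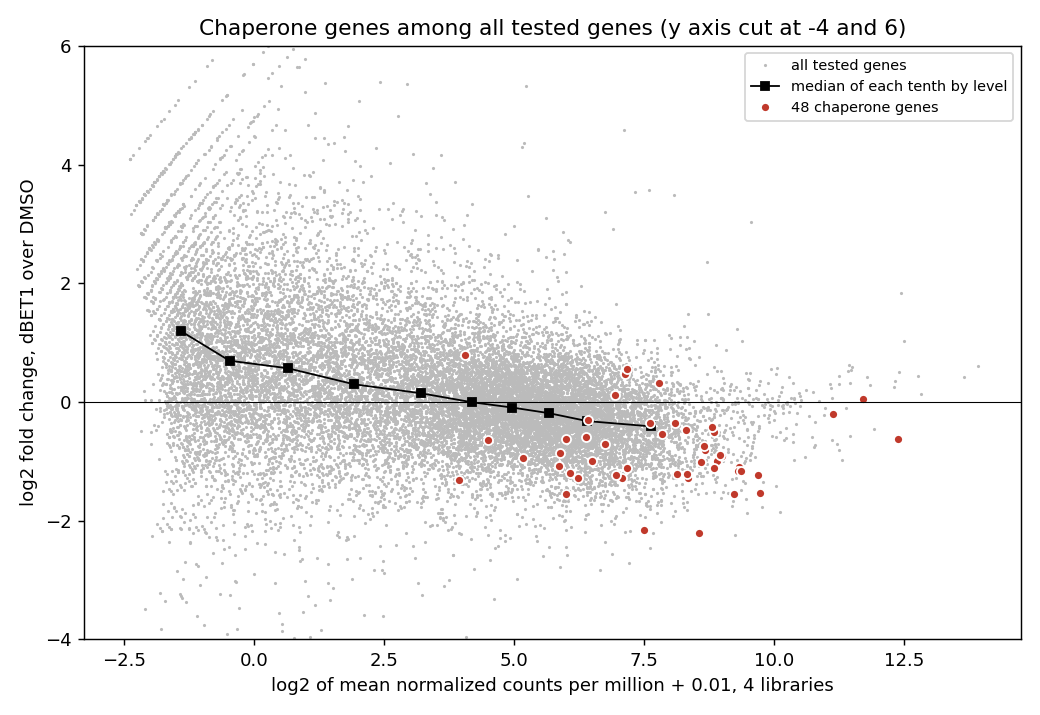
Log2 fold change after dBET1 against the mean level of each gene on a log2 scale. Grey points are all 17971 tested genes, black squares the median of each decile by level and red points the chaperone genes. The median falls from low to high level, and most red points lie below it, with FKBP4 (-2.21) and HSPE1 (-2.15) lowest among them.

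Cytosolic HSP90 is encoded by the heat-inducible HSP90AA1 and the constitutive HSP90AB1. HSP90AB1 (chr6:44246166-44253888 on hg38) gave 6237 and 6731 CPM with DMSO and 4300.1 and 4138 CPM with dBET1, a log2 fold change of -0.62 (standard error 0.0695). HSP90AA1 gave 2403 and 2418 CPM against 2083 and 2099 CPM, which is -0.21 (standard error 0.063) on the log2 scale. Among the called genes, HSP90AA1 had the smallest change. It was no call with the replicate number as a block (-0.21) or without either dBET1 library (-0.21 and -0.23), and likewise with at least 10 counts required in every sample (-0.13) or counts divided by 2 (-0.17). Per kb of transcript, the level of HSP90AB1 was 3.28 and 3.52 times that of HSP90AA1 with DMSO but 2.61 and 2.49 times after dBET1.

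HSP70 genes went in different directions. The stress-inducible copies HSPA1A and HSPA1B, which encode the same HSP70 protein, rose. HSPA1A (chr6:31815543-31817946) had 106 and 127 CPM with DMSO and 175 and 167 CPM with dBET1, a log2 fold change of 0.55 (standard error 0.0986). HSPA1B had 108 and 129 CPM, then 170.5 and 156 CPM, at 0.46 (standard error 0.103). Their sequences are nearly identical and reads cannot be assigned to 1 copy with certainty, but the summed counts of both gave a log2 fold change of 0.51 and were called higher. HSPA1B was no call without dBET1 replicate 1 (0.39) or with no count filter (0.41).

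HSPA8, the constitutive HSC70, stood at 3302 and 3338 CPM with DMSO and at 3432 and 3412 CPM with dBET1. The difference of 0.04 on the log2 scale (standard error 0.0625) did not pass the threshold, although the libraries did not overlap. With total counts only it was 0.25 and was called higher, and with no count filter it was -0.011. HSPA4 and HSPH1, members of the HSP110 family that act as exchange factors of HSP70, fell. HSPA4 went from 524 and 485 to 301 and 299.96 CPM (-0.75, standard error 0.0724), and HSPH1 from 316 and 298 to 236 and 242 CPM (-0.36, standard error 0.0712). HSPH1 was no call without dBET1 replicate 1 (-0.35) or with total counts only (-0.15). HSPA14, an atypical HSP70 that binds ribosomes, fell from 124 and 117 to 57.2 and 63.7 CPM (-0.99, standard error 0.0893). The class median was -0.16 and turned to 0.050 with total counts only.

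J-domain proteins bring clients to HSP70 and stimulate its ATPase. DNAJB4, a relative of DNAJB1, rose from 12.8 and 11.7 to 22.2 and 20.3 CPM, a log2 fold change of 0.79 (standard error 0.135) and the highest of all 48 genes. DNAJB1, the main heat-inducible J-domain partner of HSP70, rose from 189 and 203 to 254 and 236 CPM (0.32, standard error 0.0777), but was no call when either dBET1 library was left out (0.27 and 0.36) or with no count filter (0.27). Exons of TECR on the opposite strand share 525 bp with those of DNAJB1, and the strand setting of the counting is not given in the sources used here. DNAJB6, a suppressor of aggregation, had 115 and 121 CPM with DMSO and 131 and 126 CPM with dBET1, and its difference of 0.12 (standard error 0.0754) did not pass. With total counts only it was 0.33 and was called higher. The remaining members fell. DNAJA1, a farnesylated cochaperone of HSC70, went from 374 and 367 to 273 and 261 CPM (-0.47, standard error 0.0689). DNAJA2, its close relative, went from 102 and 98.7 to 65.1 and 68.7 CPM (-0.58, standard error 0.0808). The decreases of both DNAJC genes were larger than those of both DNAJA genes. DNAJC2, a chaperone of the ribosome, went from 106 and 107 to 42.9 and 44.6 CPM (-1.28, standard error 0.0814). DNAJC7, which also binds HSP90 through its TPR repeats, went from 180.3 and 168 to 76.4 and 72.0 CPM (-1.23, standard error 0.0812). Opposite-strand exons also overlap DNAJC2 (1400 bp, PMPCB) and DNAJC7 (480 bp, NKIRAS2, and 437 bp, CNP). Among the exchange factors, BAG1 went from 75.0 and 80.7 to 51.1 and 50.2 CPM (-0.62, standard error 0.0860), and BAG3, a stress-inducible partner of HSP70 in selective autophagy, from 95.4 and 95.4 to 75.4 and 78.5 CPM (-0.31, standard error 0.0784). BAG3 was no call when either dBET1 library was left out (-0.29 and -0.35) or with total counts only (-0.099).

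All 9 HSP90 cochaperone genes fell, with a median log2 fold change of -1.08. Of all tested genes 27.6% were lower, and of the highest decile, which holds 7 of the 9, 62.1%. FKBP4 (chr12:2794970-2805423), the immunophilin FKBP52 that promotes steroid receptor activity, had the largest decrease of the 48 genes, with 618 and 634 CPM in the DMSO libraries but 138 and 132 CPM after dBET1, 4.64-fold lower (log2 fold change -2.21, standard error 0.0717). Its paralog FKBP5, the immunophilin FKBP51 that restrains the same receptors, went from 284 and 261 to 191 and 185 CPM (-0.54, standard error 0.0756). Per kb of transcript, FKBP4 was thus 2.19 and 2.45 times as abundant as FKBP5 with DMSO but only 0.728 and 0.720 times after dBET1, so that the order of the pair was turned in both replicates. STIP1 (HOP), which joins HSP70 to HSP90, went from 619 and 681 to 352 and 347 CPM (-0.90, standard error 0.0750).

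CDC37, which hands protein kinases to HSP90, fell from 371 and 414 to 168 and 169.9 CPM (-1.22, standard error 0.0798). AHSA1, the activator of the HSP90 ATPase, fell from 195 and 201 to 91.1 and 92.0 CPM (-1.11, standard error 0.0731). For PTGES3 (p23), which stabilizes the closed, ATP-bound form, the values were 528 and 519.8 CPM and then 302 and 297 CPM (-0.81, standard error 0.0669). STUB1 (CHIP), an E3 ligase that ubiquitinates chaperone clients, went from 175 and 210.4 to 79.0 and 78.4 CPM (-1.29, standard error 0.101). Its exons share 985 bp with JMJD8 on the opposite strand, and PPID shares 1427 bp with ETFDH in the same way. PPID (cyclophilin 40) went from 80.4 and 79.0 to 38.2 and 37.4 CPM (-1.08, standard error 0.0840), and CHORDC1 (morgana), an HSP90-binding protein, from 141 and 128 to 81.9 and 82.7 CPM (-0.71, standard error 0.0822). For every cochaperone the higher dBET1 library lay below the lower DMSO library. The same held for 37.4% of all tested genes and 68.6% of the highest decile. Of the 3 genes with an exact 3-unit heat shock element, CHORDC1 fell and HSPA8 and DNAJB6 were not called. Whether these elements had a part in the changes was not tested.

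**Figure D3:**
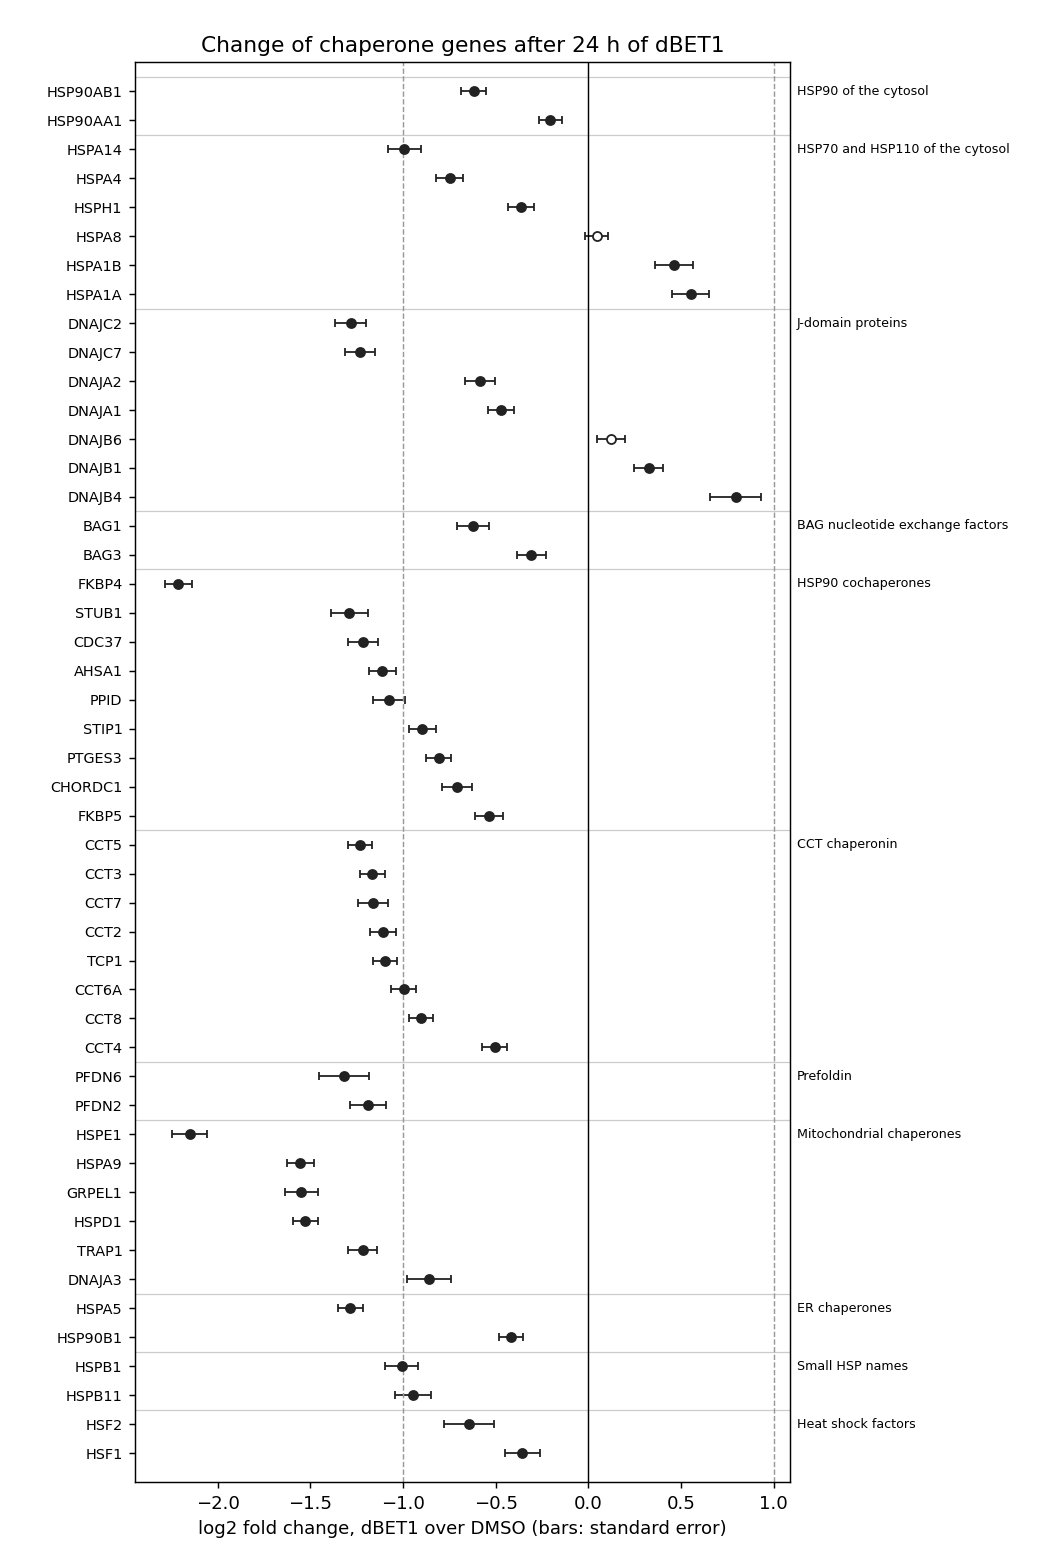
Log2 fold change of each chaperone gene after 24 h of dBET1, ordered within each role. Bars are standard errors. Filled points passed an adjusted p under 0.05 and open points (HSPA8, DNAJB6) did not. Dashed lines mark -1 and 1. All cochaperone, CCT, prefoldin and mitochondrial genes lie left of 0.

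The CCT genes fell together. All 8 were lower, with a median log2 fold change of -1.10 and a range from -1.23 to -0.51. All 8 lie in the highest decile, in which 62.1% of genes were lower and the median was -0.41. CCT5 (chr5:10249929-10266389) had the largest decrease, from 1161 and 1162 to 495 and 493 CPM (-1.23, standard error 0.0653). CCT3 went from 919.9 and 911 to 399 and 417 CPM (-1.17), CCT7 from 824 and 928 to 398 and 385 CPM (-1.16), CCT2 from 644 and 626 to 288 and 301 CPM (-1.11) and TCP1, which encodes the alpha subunit, from 869 and 877 to 409 and 408 CPM (-1.10). CCT6A went from 633 and 653 to 325 and 319.8 CPM (-0.997) and CCT8 from 676 and 668 to 364 and 354 CPM (-0.90). Standard errors of the 8 genes ran from 0.0653 to 0.0803. CCT4 stood apart from the others, going from 534 and 546 to 387 and 373 CPM (-0.51, standard error 0.0676). TCP1 shares 454 bp of exon with ACAT2 on the opposite strand, which had 2819 and 2592 counts with DMSO and 809 and 902 with dBET1.

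The assembled ring holds 1 copy of each subunit. Levels per kb of transcript ranged in the DMSO libraries from 227 for CCT4 to 474 CPM per kb for CCT7, a 2.09-fold range, and in the dBET1 libraries from 125 for CCT6A to 212 CPM per kb for CCT7, a 1.70-fold range. CCT4 was the lowest of the 8 by this measure with DMSO and the fifth after dBET1. Among DMSO libraries CCT7 (474 ± 39.8 CPM per kb, SD, n = 2) and CCT3 (463 ± 3.28, SD, n = 2) did not differ beyond their spread. Prefoldin genes fell as well. PFDN2 went from 88.8 and 99.1 to 42.9 and 39.4 CPM (-1.19, standard error 0.0964), and PFDN6 from 21.2 and 22.6 to 8.66 and 8.84 CPM (-1.32, standard error 0.136). PFDN6 shares 724 bp of exon with RGL2 on the opposite strand, which had 205 and 197 counts with DMSO and 308 and 404 with dBET1.

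**Figure D4:**
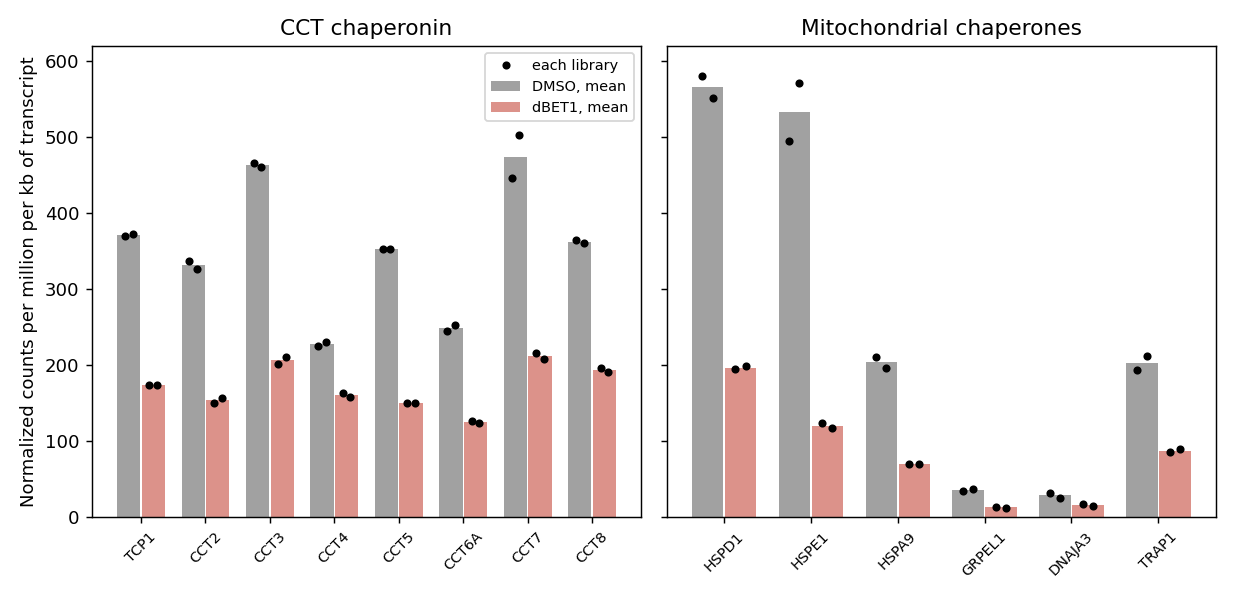
Levels per kb of transcript of the CCT subunits (left) and the mitochondrial chaperones (right), with bars for the mean of each group and a point for each library. Every dBET1 bar is lower than its DMSO bar, with CCT4 at 227 and 159.9 CPM per kb on the left and HSPE1 at 534 and 120.1 CPM per kb on the right.

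Mitochondrial chaperones had the lowest class median, -1.54, and all 6 fell. The highest decile, in which 62.1% of genes were lower, holds 4 of these 6 genes. HSPD1 (HSP60) and HSPE1 (HSP10) form the chaperonin of the matrix. HSPD1 (chr2:197486584-197516737) gave 1303 and 1239 CPM with DMSO and 437 and 445 CPM with dBET1, 2.88-fold lower (-1.53, standard error 0.0686). HSPE1 went from 276 and 318 to 68.8 and 65.1 CPM, 4.44-fold lower (-2.15, standard error 0.0938). The pair did not move in step. Per kb, HSPE1 stood at 0.853 and 1.04 times HSPD1 in the DMSO libraries and at 0.634 and 0.590 times in the dBET1 libraries. Exons of the pair overlap by 135 bp on opposite strands in the annotation. Numbered pseudogenes of HSPE1 (26 in the table) summed to 1.69% and 2.84% of its own count with DMSO and to 3.54% and 3.27% with dBET1.

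HSPA9 (mortalin), the HSP70 of the import motor, fell from 927 and 866 to 306 and 305 CPM (-1.55, standard error 0.0714). GRPEL1, its nucleotide exchange factor, went from 91.7 and 98.8 to 33.0 and 32.1 CPM (-1.55, standard error 0.0884). The difference between chaperone and exchange factor was thus smaller than either standard error. DNAJA3, the J-domain partner, had 84.0 and 68.1 CPM against 43.9 and 40.0 CPM (-0.86, standard error 0.119). TRAP1, the mitochondrial HSP90, went from 429 and 472 to 190.0 and 197 CPM (-1.22, standard error 0.0778). DNASE1 shares 1477 bp of exon with TRAP1 on the opposite strand and had 679 and 714 counts with DMSO against 3180 and 3221 with dBET1.

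In the ER, HSPA5 (BiP), the HSP70 that also holds the sensors of the unfolded protein response inactive, fell from 457 and 462 to 192 and 186 CPM (-1.28, standard error 0.0688). HSP90B1 (GRP94) fell less, from 516 and 513 to 390.1 and 381 CPM (-0.42, standard error 0.0665), and 805 bp of its exons overlap UQCC6 on the opposite strand. Both carry an ER stress element in the window searched. The ratio of cytosolic HSPA8 to HSPA5 per kb was 12.5 in each DMSO library and 31.0 and 31.8 in the dBET1 libraries. HSPB1 (HSP27), a small heat shock protein, fell from 478 and 559 to 258 and 258 CPM (-1.01, standard error 0.0882). HSPB11, which despite its name encodes a subunit of the intraflagellar transport complex, went from 47.99 and 47.0 to 25.5 and 23.7 CPM (-0.95, standard error 0.0978). HSF1 had 201 and 241 CPM with DMSO and 174 and 171 CPM with dBET1 (-0.36, standard error 0.0958). It was no call when either dBET1 library was left out (-0.38 and -0.36) or with total counts only (-0.14). HSF2 went from 30.0 and 25.6 to 16.7 and 18.9 CPM (-0.64, standard error 0.134).

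Together the 48 genes took 2.69% and 2.70% of all counts with DMSO but 1.97% and 1.96% after dBET1. HSP90AB1, HSP90AA1 and HSPA8 alone held 1.12% and 1.15% and then 1.05% and 1.04%. The share of the CCT genes went from 0.589% and 0.584% to 0.328% in both dBET1 libraries, and that of the mitochondrial chaperones from 0.293% and 0.281% to 0.116% and 0.117%, while the cytosolic HSP70 class went from 0.422% and 0.412% to 0.468% and 0.467%. All these shares are of raw counts, without TMM scaling. With TMM the median log2 fold change of that HSP70 class was -0.16, and HSPA8 was not called. Ordered by level per kb, HSP90AB1 (2538 ± 137 CPM per kb with DMSO), HSPA8 (1466 ± 11.1), HSP90AA1 (747 ± 3.18) and HSPB1 (667 ± 73.1) led in the DMSO libraries (SD, n = 2 each). The same 4 genes led in that order after dBET1, at 1651 ± 44.8, 1512 ± 6.37, 648 ± 3.60 and 332 ± 0.139 CPM per kb (SD, n = 2 each). HSPD1 (566 ± 20.1) and HSPE1 (534 ± 53.9) came next with DMSO and did not differ beyond their spread. After dBET1 HSPD1 ranked 7 and HSPE1 ranked 17.

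Chaperone genes outside the 48 were drawn from a list by function. Of 102 genes found, 96 passed the count filter, 55 of them fell (57.3%, against 27.6% of all tested genes) and 11 rose (11.5%, against 28%). In the highest decile, which holds 25 of these genes, 62.1% of all genes were lower and 13.6% higher. This list, too, was drawn up with earlier results of the treatment known. Each gene given below with an adjusted p had the smallest p of its class and direction. Those p-values therefore carry no weight beyond description. Of the 11 genes that rose, HSPA6, CCT6B, HSPB6 and HSPB7 had so few DMSO counts that they were tested only because the dBET1 libraries were higher, and 7 rose when at least 10 counts were required in every sample. The median log2 fold change of the 96 tested genes was -0.41. Among 19 further HSP90 cochaperones 12 fell and 1 rose. RUVBL2, an ATPase of the R2TP complex that works with HSP90, fell from 407 ± 33.1 to 136 ± 1.89 CPM (SD, n = 2 each, log2 fold change -1.58, adjusted p = 1.17e-05 from the same edgeR test), whereas FNIP1, which slows the HSP90 ATPase, rose from 37.6 ± 1.53 to 68.3 ± 4.65 CPM (SD, n = 2 each, 0.86, adjusted p = 0.000205 from edgeR). HSPBP1, an exchange factor of HSP70, fell (-1.47, adjusted p = 2.80e-05 from edgeR), and so did 4 of 5 genes of its class, itself included. Among 9 tested mitochondrial genes 7 fell and 0 rose, with the protease subunit CLPP at -1.15 (adjusted p = 4.76e-05 from edgeR).

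ER genes were more mixed than the further mitochondrial genes. Their shares (60.9% lower, 13% higher) were close to those of the whole list (57.3% and 11.5%). Of 23 tested, 14 fell and 3 rose, with the prolyl isomerase PPIB at -1.16 (adjusted p = 3.58e-05 from edgeR) and the J-domain protein DNAJC1 at 0.47 (adjusted p = 0.00168 from edgeR). Of 16 further J-domain genes, 7 fell and 3 rose. DNAJC11, a mitochondrial J-domain protein, was at -1.20 (adjusted p = 3.56e-05 from edgeR), and DNAJB2, best known from neurons, rose from 4.26 ± 0.216 to 19.8 ± 2.07 CPM (SD, n = 2 each, log2 fold change 2.22, adjusted p = 3.75e-05 from edgeR). The class of CCT and prefoldin genes also held TBCA, TBCB, TBCC, TBCD, PDCL3 and TXNDC9, which encode no subunit of either complex. In it 7 of 11 fell, among them the prefoldin subunit VBP1 (-0.89, adjusted p = 7.37e-05 from edgeR). PDCL3, TBCA, TBCB and TBCD were also among those that fell. The 1 gene called higher was CCT6B, the testis form of the CCT6A subunit, which had 9 and 10 counts with DMSO but 95 and 90 after dBET1.

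Of 4 tested cytosolic HSP70 and HSP110 genes, HSPA4L fell (-0.49, adjusted p = 0.00433 from edgeR) and HSPA6, a strictly inducible HSP70, had 5 and 8 counts with DMSO and 21 and 22 with dBET1. Of 6 tested small heat shock protein genes, 2 were lower and 2 higher (33.3% each, near the 27.6% and 28% of all tested genes). CRYAB, alpha-B crystallin, fell from 24.4 ± 0.635 to 4.05 ± 0.0215 CPM (SD, n = 2 each, log2 fold change -2.59, adjusted p = 1.42e-05 from edgeR), and the higher calls were HSPB6, with 8 and 4 and then 26 and 35 counts, and HSPB7, with 3 and 4 and then 10 and 22 counts. HSPB7 was named after its values were seen. Among 3 tested regulators HSBP1, a binding partner of HSF1, fell (-0.54, adjusted p = 0.00160 from edgeR) and 0 rose. HSF4 (-0.06) and HSBP1L1 (-0.16) did not pass.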

How the data were processed

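RNA of cells labelled NB4 was sequenced after 24 h with 8 μM dBET1 or DMSO, with 2 libraries per group. The authors aligned reads to hg38 with HISAT2 (version 2.2.0), estimated abundances with StringTie and deposited raw counts per Ensembl gene. How reads were counted, and whether strand was used, is not given in the sources used here. Of 64252 gene rows, 56105 matched GENCODE 44, which supplied coordinates and canonical transcript lengths. Rows without an entry held 2.57% of counts. The 48 genes, and the list of other chaperone genes, were chosen with earlier results of these data known. Groups came from the sample titles.

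Genes were filtered with filterByExpr (17971 kept), scaled by TMM (factors 0.918 to 1.08) and tested with edgeR (version 4.0.16, R 4.3.3) by the 2-sided quasi-likelihood test, dBET1 against DMSO, without a block, with Benjamini-Hochberg adjustment over all tested genes. The common biological coefficient of variation was 0.123. Calls needed an adjusted p under 0.05. Levels per kb are normalized CPM divided by canonical transcript length. Of the other chaperone genes, the text names in each class the called gene with the smallest p in each direction, and all 48 members are accounted for. Libraries of a group differed beyond counting noise (chi-square per degree of freedom 23.6 for DMSO and 8.14 for dBET1), so none was counted as a duplicate. Alternatives were DESeq2 (version 1.42.0) and its size factors, total counts, other count filters, a replicate block, counts divided by 2, HSPA1A and HSPA1B summed, and each library left out. SDs rest on n = 2, and the SD of so few libraries can lie below counting error. HSPB1 with dBET1 (332 ± 0.139 CPM per kb, from 7743 and 7871 counts) is an example. Of the marker genes, 1 is not reported here.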

Additional observations from a re-analysis of the deposited data

How the results depend on the processing

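Of the 48 chaperone genes, 40 kept their call under each of the 11 or 12 alternatives run for them. The exceptions were HSP90AA1, HSPA1B, HSPA8, HSPH1, DNAJB1, DNAJB6, BAG3 and HSF1, all with small changes. With total counts only, HSP90AA1 turned to 0.0048 and the median of the cytosolic HSP70 class to 0.0503. The other medians were then -0.72 (48 genes), -0.20 (other chaperone genes), -0.20 (HSP90), -0.26 (J-domain), -0.25 (BAG), -0.87 (cochaperones), -0.89 (CCT), -1.04 (prefoldin), -1.33 (mitochondrial), -0.64 (ER), -0.77 (small HSP names) and -0.29 (heat shock factors). With no count filter, 2 of the 48 genes and 6 other chaperone genes were higher, and medians were -0.98 (48 genes), -0.47 (other), -0.52 (BAG), -1.16 (CCT), -0.91 (ER), -0.21 (HSP70) and -0.47 (HSP90). With at least 10 counts in every sample, 7 other chaperone genes were higher, and medians were -0.855 (48 genes), -0.38 (other), -0.39 (BAG), -1.03 (CCT), -0.78 (ER), -0.43 (heat shock factors), -0.089 (HSP70) and -0.34 (HSP90). Counts divided by 2 gave -0.82 (ER) and -0.13 (HSP70), and HSPA1A and HSPA1B summed gave -0.36 (HSP70, 1 gene fewer). The causes of these shifts were not tested.

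Leaving out each library in turn gave 3777 to 5343 lower and 3356 to 5118 higher genes, the lowest higher count without dBET1 replicate 2. Of the 48 genes 38 to 42 were lower and 2 to 4 higher (2 without dBET1 replicate 1), and of the other chaperone genes 44 to 59 and 5 to 10 (7 without dBET1 replicate 1 and 5 without dBET1 replicate 2). Medians were -0.97 to -0.91 (48 genes), -0.47 to -0.41 (other), -0.47 to -0.41 (HSP90), -0.21 to -0.16 (HSP70), -0.52 to -0.46 (J-domain), -0.52 to -0.46 (BAG), -1.12 to -1.08 (cochaperones), -1.13 to -1.09 (CCT), -1.34 to -1.22 (prefoldin), -1.56 to -1.52 (mitochondrial), -0.88 to -0.85 (ER), -1.05 to -0.96 (small HSP names) and -0.55 to -0.47 (heat shock factors). The lone library left in a group is assumed to vary like the other group.

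Over all tested genes, same-numbered libraries did not deviate together (correlation of deviations -0.0075). This value cannot exclude a shared culture or day that touched part of the genes, so whether the numbers mark pairs is not known. With the replicate number as a block 41 of the 48 genes were lower and 4 higher, 56 and 11 of the other chaperone genes, and 4897 and 4976 of all tested genes. DESeq2 called 42 and 4 of the 48 genes, 55 and 9 of the others and 4682 and 3980 of all genes. With 2 libraries per group the spread is poorly known, and low-count genes such as HSPA6 and HSPB6 rest on few reads.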
